A study of Mus musculus with 2 samples.

Results

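Cyclins and cyclin-dependent kinase (CDK) inhibitors were followed in single cells of injured mouse muscle, for 10 genes taken by symbol from the 55487 genes listed: the D cyclins Ccnd1, Ccnd2 and Ccnd3, the E cyclins Ccne1 and Ccne2, the A cyclin Ccna2, the B cyclin Ccnb1, and the inhibitors Cdkn1a, Cdkn1b and Cdkn2c. Setdb1-cKO mice (KO), a conditional knockout of the histone methyltransferase gene Setdb1, were compared with wild-type mice (WT), both aged 8 to 12 weeks, in a study of the gene's role in muscle stem cells as muscle regenerates. The labels name injured tibialis anterior muscle and, in the same protocol, hindlimb muscles of both legs, for both genotypes. The tissue was digested with collagenase II and dispase, sorted on Hoechst and propidium iodide, and read by 10x Genomics single-cell 3′ v2 sequencing, which counts unique molecular identifiers (UMIs) per gene and cell. There was 1 library for each genotype. The sources used here do not state the Cre driver, the deleted part of Setdb1, the kind of injury, the day after it, the number of animals or any treatment that both libraries shared.

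D cyclins bind CDK4 and CDK6 early in G1 and carry mitogen signals to the retinoblastoma protein, E cyclins and CDK2 take the cell into S phase, cyclin A2 acts through S and G2, and cyclin B1 with CDK1 drives mitosis. Cdkn1a and Cdkn1b encode inhibitors of the CIP/KIP kind, which bind cyclin and kinase together, and Cdkn2c encodes one of the INK4 kind, which binds CDK4 and CDK6 alone. In muscle, cyclin D3 and Cdkn1a are known from the exit of myoblasts from the cycle as they differentiate, and Cdkn1b from slowly dividing stem cells.

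With 1 library for each genotype no test across animals exists, so values carry 95% intervals that cover counting error only, and a difference between KO and WT cannot be told apart from a difference between 2 preparations. A level is in CPM, the summed UMIs of a gene over the UMIs of all genes in a cell class of a library, scaled so that every class has the same total, and a ratio is KO over WT. Among barcodes with 5000 or more UMIs, 6411 KO and 6345 WT cells were kept after filters, with median depths of 12050 UMIs in KO and 12092 UMIs in WT, and 9 barcodes above that minimum occurred in both libraries. The myogenic lineage held 438 KO and 689 WT cells, 6.83% of KO cells and 10.9% of WT cells. It divided into stem cells, named from markers such as Pax7 and Myf5 (160 KO and 506 WT), cycling cells (146 KO and 126 WT), differentiating cells led by Actc1 and Myog (77 KO and 50 WT), and 55 KO and 7 WT cells that stayed unnamed because phagocyte genes such as C1qa and C1qc led them. Setdb1 itself was at 9.22 CPM in KO lineage cells and 18.1 CPM in WT lineage cells (ratio 0.509, interval 0.394 to 0.653), and at 20.8 CPM in KO phagocytes and 16.3 CPM in WT phagocytes. A 3′ tag need not lie in the deleted part of the gene, so that level checks the labels only in part.

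On GRCm38, GENCODE M21 places Ccnd1 at chr7:144929931-144939925, Ccnd2 at chr6:127125162-127152193, Ccnd3 at chr17:47505051-47599691, Ccne1 at chr7:38097984-38107534, Ccne2 at chr4:11191351-11204779, Ccna2 at chr3:36564865-36572150, Ccnb1 at chr13:100778650-100786570, Cdkn1a at chr17:29090976-29100727, Cdkn1b at chr6:134920401-134925513 and Cdkn2c at chr4:109660876-109667189. Ccnd3, Ccne2, Cdkn1a and Cdkn1b lie on the plus strand and the other 6 on the minus strand. Upstream sequence of 4 of them, 150 bases of the RefSeq promoter table (GRCm38.p6) that touch no annotated exon, is printed because the results below turn on them: Ccne1 and Ccnb1 as cyclins that went with proliferation, Cdkn1a and Cdkn1b as inhibitors that differed between the libraries within a state. Capitals mark CCAAT, the Sp1-type box GGGCGG, and p53 half-sites, each searched on both strands.
Ccne1: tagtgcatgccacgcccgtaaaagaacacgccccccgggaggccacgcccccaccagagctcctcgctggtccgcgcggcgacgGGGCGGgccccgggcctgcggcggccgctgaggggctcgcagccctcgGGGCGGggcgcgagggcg
Ccnb1: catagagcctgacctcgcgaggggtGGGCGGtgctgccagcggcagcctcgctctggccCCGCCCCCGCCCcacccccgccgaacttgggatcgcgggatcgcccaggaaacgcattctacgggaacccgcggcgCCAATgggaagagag
Cdkn1a: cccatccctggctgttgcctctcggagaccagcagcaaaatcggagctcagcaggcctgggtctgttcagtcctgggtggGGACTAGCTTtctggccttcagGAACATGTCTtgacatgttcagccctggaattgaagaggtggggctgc
Cdkn1b: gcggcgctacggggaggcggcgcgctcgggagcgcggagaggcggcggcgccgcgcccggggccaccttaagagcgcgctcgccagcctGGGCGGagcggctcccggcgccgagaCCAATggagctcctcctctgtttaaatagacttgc
The windows are chr7:38107535-38107684 (minus strand), chr13:100786571-100786720 (minus strand), chr17:29090826-29090975 (plus strand) and chr6:134920251-134920400 (plus strand), each given from 5′ to 3′ along its gene. The Ccnb1 window held a CCAAT box 99 bases and 3 GGGCGG boxes 209, 175 and 169 bases before the start of the RefSeq transcript, of which the last 2 read on the opposite strand. The Cdkn1b window held GGGCGG at 61 and CCAAT at 35 bases, and the Ccne1 window held GGGCGG at 110 and 62 bases. The Cdkn1a window held 2 p53 half-sites, at 73 and 51 bases, a motif that was searched after this sequence had been read. Of all 32851 windows in the table, taken as the 150 bases directly before each start, 24.5% held CCAAT, 28.6% held GGGCGG and 4.01% held a p53 half-site. The printed windows were moved upstream where they touched an exon. Those of Ccne1, Ccnb1 and Cdkn1a end 45, 85 and 4 bases before the start, so their spans differ from the windows behind these shares. The E2F-type letters TTTCGCGC (0.158% of windows) and TTTCCCGC (0.603%) and the cell-cycle element TTTGAA (9.07%) were absent from these 4 windows, which says nothing of sites elsewhere. Ccnd3 and Cdkn2c also had windows, which are not printed. Cdkn2c likewise differed between the libraries within a state, and its window, with 42.7% G and C, held none of the motifs searched. That window (chr4:109665373-109665522) lies before a transcript start inside the gene as placed above. It does not show the sequence before the gene's 5′ end.

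The 3 D cyclins were highest in different cell classes. In KO cells Ccnd1 was highest in dendritic cells (240 CPM, interval 224 to 258) and endothelial cells (239 CPM, 228 to 250), and in WT cells likewise at 214 CPM (200 to 228) and 211 CPM (200 to 222). Those classes did not differ beyond their intervals in either library. Mural cells followed, with 171 CPM in KO and 174 CPM in WT, and then the myogenic lineage, fibro-adipogenic cells, phagocytes, tenocytes and lymphocytes. In KO the lineage overlapped mural cells, while in WT it lay below them.

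Ccnd2 was by far highest in mural cells, the pericytes and smooth muscle cells of vessels, with 548 CPM in KO (515 to 582) and 388 CPM in WT (356 to 421). Tenocytes and lymphocytes followed, overlapping each other, at 180 and 172 CPM in KO and at 143 and 191 CPM in WT. In the myogenic lineage Ccnd2 was at 3.39 CPM in KO and 2.30 CPM in WT, from 32 KO and 31 WT UMIs. After each cell was thinned to 5000 UMIs, 2.74% of KO and 0.581% of WT lineage cells held a Ccnd2 UMI, against 3.45% of KO and 2.78% of WT phagocytes, and without thinning 5.71% of KO and 3.63% of WT lineage cells and 6.04% of KO and 4.94% of WT phagocytes did. Median depths before thinning were 18891 UMIs in KO and 17319 in WT lineage cells, and 11752 in KO and 11444 in WT phagocytes. The lineage shares were below those of phagocytes, a class that was not shown to lack Ccnd2. With ambient RNA subtracted, 1.96 CPM in KO and 2.02 CPM in WT lineage cells remained. With so few UMIs the lineage's Ccnd2 was read neither as expression nor as its absence.

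Ccnd3 was highest in the myogenic lineage, at 239 CPM in KO (230 to 250) and 240 CPM in WT (232 to 248). Lymphocytes came next at 194 CPM in KO and 158 CPM in WT, and dendritic cells at 128 CPM in KO and 112 CPM in WT. Phagocytes were lowest, at 28.8 CPM in KO and 27.4 CPM in WT. The lineage overlapped lymphocytes in KO and lay above them in WT. Endothelial, tenocyte, fibro-adipogenic and mural cells came between dendritic cells and phagocytes. In both libraries neighbours among these 4 overlapped, while the highest of them lay below dendritic cells and the lowest above phagocytes.

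The E, A and B cyclins were highest in classes with many dividing cells. Proliferation transcripts, by the gate described below, were found in 60.7% of KO and 64% of WT lymphocytes, 46.1% of KO and 27% of WT lineage cells and 6.20% of KO and 6.21% of WT phagocytes. The shares were 31.9% of KO and 12.9% of WT fibro-adipogenic cells and 20.3% of KO and 9.17% of WT mural cells. Ccne1 was highest in the lineage in KO (34.0 CPM, 30.4 to 38.0) and in lymphocytes in WT (32.8 CPM, 21.6 to 47.8), with overlapping intervals between those 2 classes in both libraries. Ccne2 was highest in lymphocytes in both, at 57.4 CPM in KO and 31.6 CPM in WT. Ccna2 in the lineage, lymphocytes and mural cells was at 64.6, 64.1 and 58.7 CPM in KO, 3 levels that could not be parted, and at 41.4, 108 and 29.6 CPM in WT. Fibro-adipogenic cells had less of it than mural cells, at 36.5 CPM in KO and 18.7 CPM in WT, although more of them held proliferation transcripts. Ccnb1 was at 54.2 CPM in KO and 33.9 CPM in WT lineage cells, 39.9 CPM in KO and 10.3 CPM in WT mural cells, and 28.7 CPM in KO and 42.6 CPM in WT lymphocytes. In phagocytes, the most numerous class, the highest of these 4 cyclins was Ccna2, at 5.92 CPM in KO and 6.10 CPM in WT.

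The inhibitors were spread more evenly. Cdkn1a was highest in phagocytes in KO (473 CPM, 467 to 479) and in endothelial cells in WT (400 CPM, 385 to 415), and lowest in tenocytes in both, at 71.6 CPM in KO and 64.3 CPM in WT. In WT tenocytes overlapped fibro-adipogenic cells, and with no doublets removed WT tenocytes were at 105 CPM. Cdkn1b was highest in dendritic cells at 138 CPM in KO and 121 CPM in WT and lowest in phagocytes at 51.8 CPM in KO and 49.9 CPM in WT. Its dendritic level overlapped that of lymphocytes in KO, and its phagocyte level that of tenocytes in WT. Cdkn2c was highest in mural cells in KO (48.8 CPM) and in lymphocytes in WT (43.8 CPM), and mural cells, lymphocytes and the lineage, its 3 highest classes in both libraries, overlapped their neighbours among themselves.

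**Figure D1:**
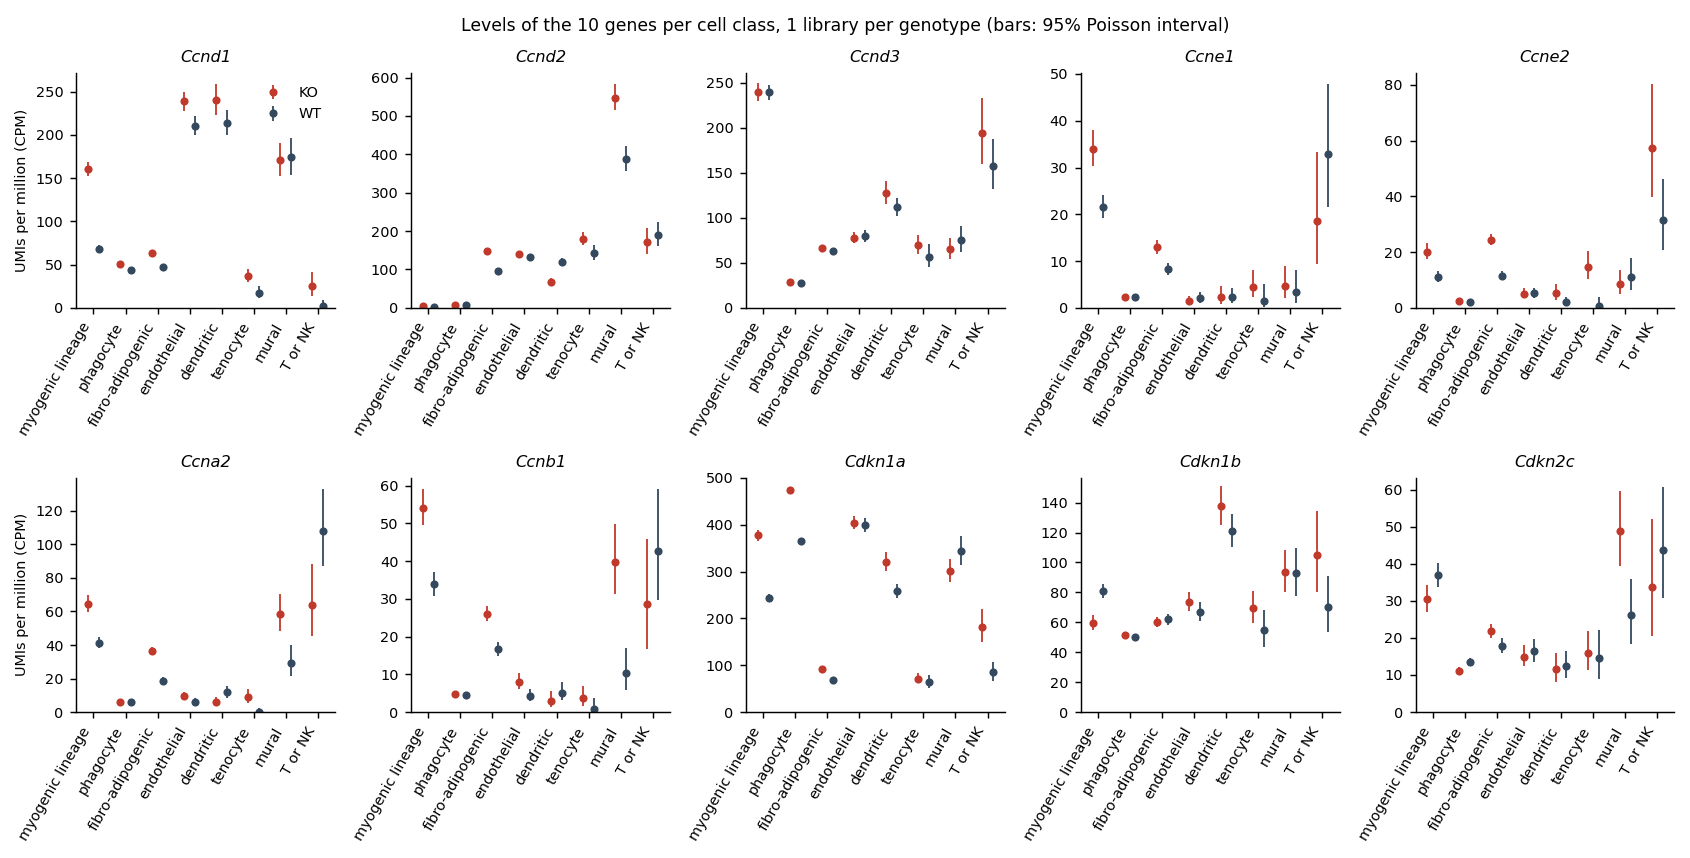
Level of each gene in CPM (vertical axis, linear from 0, separate scale per panel) in 8 cell classes (horizontal axis), KO left in red and WT right in dark blue, with 95% Poisson intervals as bars, which cover counting error only. Ccnd2 stands highest in mural cells, at 548 CPM in KO and 388 CPM in WT, Ccnd3 in the myogenic lineage, at 239 CPM in KO and 240 CPM in WT, and Cdkn1a in phagocytes in KO (473 CPM) and endothelial cells in WT (400 CPM).

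In the myogenic lineage, 6 of the 10 genes were at least 1.5-fold higher in KO and none was 1.5-fold lower, where 13% of the 13717 genes tested (at least 20 UMIs in all) were that much higher in KO and 11.4% that much lower. The 6 were Ccnd1, Ccne1, Ccne2, Ccna2, Ccnb1 and Cdkn1a. Over the 10 genes the median log2 ratio, with 5 CPM added, was 0.57, beside 0.03 over all genes tested. The count was 3 when mitochondrial, ribosomal protein and haemoglobin genes were left out of the totals and 2 when the 3 named states were weighted as in WT. Those 2 were Ccnd1 and Ccnd2, so of the 6 only Ccnd1 passed with these weights, and Ccnd2 rests on few UMIs. Counts at such other settings, here and in the states and classes below, are given without the share over all genes at those settings. The summed level of 18 phagocyte markers also differed, at 1359 CPM in KO and 566 CPM in WT lineage cells, with 16 of 18 higher in KO and none at 0.

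Ccnd1, the D cyclin that growth factors induce, had the largest difference of the 10 in the lineage. It had 1517 UMIs in 438 KO cells, or 161 CPM (153 to 169), against 921 UMIs in 689 WT cells, or 68.4 CPM (64.0 to 72.9). The ratio was 2.35 (2.17 to 2.56), and 2.42 without the unnamed cells that phagocyte genes led. The cell richest in Ccnd1 held 92 UMIs in KO and 39 UMIs in WT. After thinning to 5000 UMIs, 37.0% of KO lineage cells (32.5 to 41.7) and 20.5% of WT lineage cells (17.5 to 23.7) held a Ccnd1 UMI, so that a larger share of KO cells carried it. Unthinned, the shares were 58.2% in KO and 41.2% in WT. Of lymphocytes, the class lowest in Ccnd1, 8.93% of KO and 0 of 50 WT cells held one after thinning, and 12.5% of KO and 4% of WT cells did before it, at median depths of 8596 UMIs in KO and 13853 UMIs in WT.

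Ccnd1 was higher in KO in each of the 3 named states. It was at 130 CPM in KO and 59.3 CPM in WT stem cells (ratio 2.19, 1.91 to 2.52), at 188 CPM in KO and 93.0 CPM in WT cycling cells (2.02, 1.77 to 2.31), and at 162 CPM in KO and 59.1 CPM in WT differentiating cells (2.75, 2.12 to 3.61). Stem cells drawn by per-cell gates gave 204 CPM in KO and 61.3 CPM in WT (3.32). The phagocyte markers summed to 479 CPM in KO and 477 CPM in WT stem cells, to 568 CPM in KO and 408 CPM in WT cycling cells, and to 398 CPM in KO and 360 CPM in WT differentiating cells. The part of these markers in the lineage ratios was not tested.

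Ccnd3, the D cyclin of differentiating muscle, was close between libraries in the lineage, at 239 CPM in KO from 2259 UMIs and 240 CPM in WT from 3229 UMIs (ratio 0.999, 0.946 to 1.05). Within states it was at 229 CPM in KO and 261 CPM in WT stem cells, 211 CPM in KO and 164 CPM in WT cycling cells (ratio 1.29, 1.16 to 1.44), and 344 CPM in KO and 318 CPM in WT differentiating cells (1.08, 0.952 to 1.23). Per-cell gates gave ratios of 0.988 in stem cells, 1.07 in cycling cells and 0.949 in differentiating cells, at 306 CPM in KO and 323 CPM in WT, so the direction in differentiating cells turned. In both libraries Ccnd3 was highest in differentiating cells.

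Ccne1 was at 34.0 CPM in KO and 21.5 CPM in WT lineage cells (ratio 1.58, 1.34 to 1.86), and Ccne2 at 20.1 CPM in KO and 11.1 CPM in WT (1.81, 1.45 to 2.26). In cycling cells the same genes were close between libraries, Ccne1 at 55.8 CPM in KO and 50 CPM in WT and Ccne2 at 40.1 CPM in KO and 36.3 CPM in WT, with both intervals spanning 1. In stem cells Ccne1 was at 18.5 CPM in KO and 11.8 CPM in WT (ratio 1.57, 1.10 to 2.23), while Ccne2 had only 7 KO and 24 WT UMIs there, and was at 14.5 CPM in KO and 4.33 CPM in WT stem cells drawn by per-cell gates. One WT cell held 39 of the 290 WT lineage UMIs of Ccne1, and one held 24 of the 150 of Ccne2.

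Ccna2 and Ccnb1 were higher in KO over the whole lineage. Within its cycling cells their intervals spanned 1, and per-cell gates gave ratios of 1.06 for Ccna2 and 1.07 for Ccnb1 there. Ccna2 was at 64.6 CPM in KO and 41.4 CPM in WT lineage cells (ratio 1.56, 1.39 to 1.75), but at 138 CPM in KO and 154 CPM in WT cycling cells (0.896, 0.795 to 1.01). Ccnb1 was at 54.2 CPM in KO and 33.9 CPM in WT lineage cells (1.60, 1.41 to 1.82), but at 114 CPM in KO and 126 CPM in WT cycling cells (0.901, 0.789 to 1.03). Cycling cells held nearly all of both transcripts, 568 of 609 KO and 526 of 558 WT UMIs for Ccna2, and they were 33.3% of KO lineage cells (28.9 to 38.0) and 18.3% of WT lineage cells (15.5 to 21.4). Weighting the 3 named states as in WT (stem 65.3%, cycling 25.8% and differentiating 8.94% of UMIs, where KO had 30.5%, 46.6% and 22.9%) gave 38.8 CPM in KO and 41.4 CPM in WT for Ccna2 (ratio 0.937) and 33.3 CPM in KO and 33.7 CPM in WT for Ccnb1 (0.986). With those weights Ccnd1 was still at a ratio of 2.18, Ccne1 was at 1.29 and Ccne2 at 1.09.

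Cdkn1a, the inhibitor that p53 and MyoD are known to induce, was at 377 CPM in KO (365 to 389) and 244 CPM in WT lineage cells (236 to 253), a ratio of 1.54 (1.47 to 1.62). The direction was not the same in every state, a difference that was not tested. In stem cells it was at 291 CPM in KO and 140 CPM in WT (2.07, 1.89 to 2.27). In the same stem cells 9 of 10 differentiation markers were higher in KO and none was at 0, with a sum of 1104 CPM in KO and 463 CPM in WT (Myog 101 CPM in KO and 27.5 CPM in WT). Of 8 stem markers there 5 were lower in KO, among them Pax7 (157 CPM in KO, 194 CPM in WT) and Myf5 (140 CPM in KO, 215 CPM in WT), with a sum of 1501 CPM in KO and 1683 CPM in WT. The part of these in the stem cell ratios was not tested. Cdkn1a was in cycling cells at 196 CPM in KO and 241 CPM in WT (0.814, 0.738 to 0.898), and in differentiating cells at 853 CPM in KO and 1013 CPM in WT (0.842, 0.782 to 0.907). Both libraries had their highest Cdkn1a level in differentiating cells. With the WT weights of the states the lineage ratio was 1.30, and when states were drawn instead by per-cell gates on the same markers, it was 1.05 in cycling cells and 0.962 in differentiating cells, so the direction in cycling cells turned.

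Cdkn1b and Cdkn2c were lower in KO. Cdkn1b was at 59.6 CPM in KO (54.8 to 64.7) and 80.8 CPM in WT lineage cells (76.1 to 85.7), a ratio of 0.738 (0.665 to 0.817), and the difference was widest in cycling cells, at 57.8 CPM in KO and 90.4 CPM in WT (0.639, 0.538 to 0.760). In stem cells Cdkn1b was not past 1.5-fold, and with the WT weights of the states its lineage ratio was 0.825. Differentiating cells went the other way, at 42.4 CPM in KO and 32.1 CPM in WT, from 86 KO and 38 WT UMIs and with an interval of 0.893 to 1.99. Per-cell gates turned that direction, at 42.6 CPM in KO and 50.6 CPM in WT (0.841). Cdkn2c was at 30.5 CPM in KO and 36.9 CPM in WT lineage cells (0.827, 0.713 to 0.959), and at 21.9 CPM in KO and 35.1 CPM in WT stem cells (0.622, 0.463 to 0.825). In cycling cells Cdkn2c was at 48.8 CPM in KO and 50.6 CPM in WT, with an interval of 0.783 to 1.19.

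By state, 6 of the 10 genes were at least 1.5-fold higher and 1 that much lower in KO stem cells, where 12% and 9.61% of all genes tested were. In cycling cells 1 was higher (Ccnd1) and 1 lower (Cdkn1b), where 9.12% and 9.51% of genes were. In differentiating cells 1 was higher (Ccnd1) and 1 lower (Cdkn2c, with an interval of 0.326 to 1.30), where 12.5% and 10.9% were (23.4% in either direction). By per-cell gates 4 genes passed there. That count, and those for stem cells at other settings, have no share over all genes beside them. The stem cell count, which was 4 by per-cell gates and 3 at a finer clustering, held 3 genes under 20 UMIs in a library: Ccnd2 (12 KO and 25 WT UMIs), Ccna2 (12 and 19) and Ccnb1 (15 and 14).

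**Figure D2:**
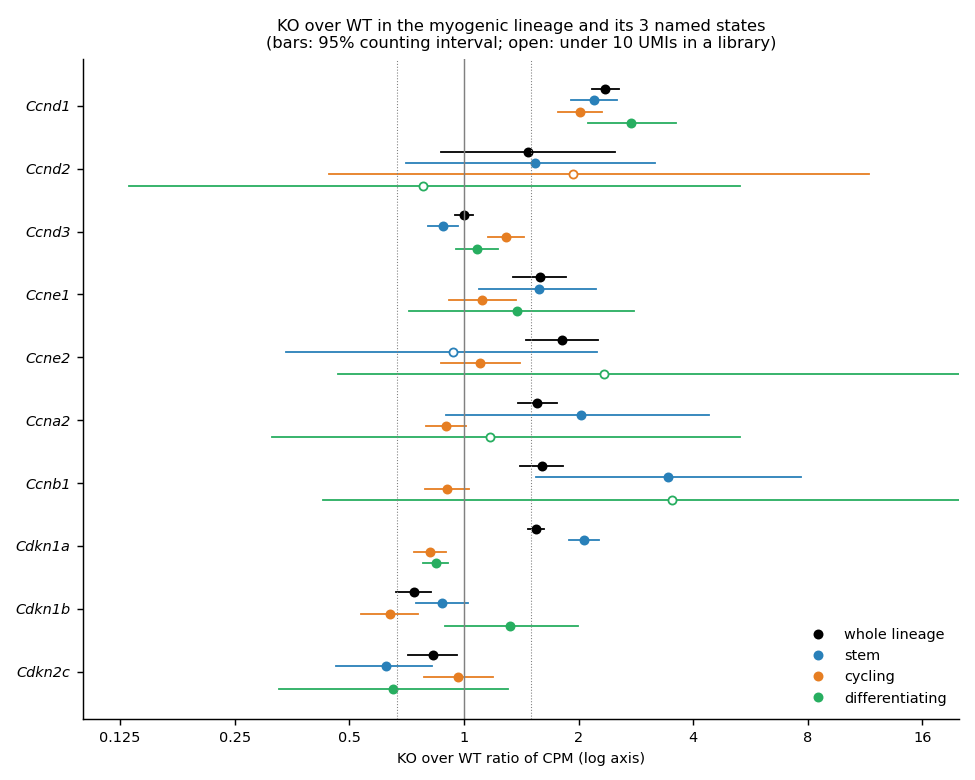
Ratio of KO over WT CPM (horizontal log axis, 1 marked solid, 1.5 and its inverse dotted) for each gene in the whole myogenic lineage and its 3 named states, with 95% counting intervals as bars, cut where they run past the axis, and open points where a library had under 10 UMIs. Ccnd1 lies at 2.02 or more in all 4, Ccna2 and Ccnb1 are near 0.9 in cycling cells (0.896 and 0.901), and Cdkn1a is at 2.07 in stem cells but 0.814 in cycling cells.

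Cells were split without clusters by 10 proliferation genes that are not among the 10 studied, such as Mki67 and Top2a, after thinning to 5000 UMIs. At least 2 UMIs of them were found in 202 of 438 KO lineage cells (46.1%, 41.4 to 50.9) and 186 of 689 WT lineage cells (27%, 23.7 to 30.5), and no UMI in 176 KO and 361 WT cells. The 202 KO and 186 WT cells equal in number the cycling cells drawn by per-cell gates above. Their ratios for Ccna2, Ccnb1, Ccnd3 and Cdkn1a are the same as those given there, so they are no second check of those values. Both libraries placed Ccna2 and Ccnb1 almost entirely in the cells with proliferation transcripts. The 10 gate genes all lie in the G2 and M phase list used below, so this placing follows largely from the gate. A cell with none of them need not be outside the cycle. Ccna2 was at 126 CPM in them and 2.09 CPM in cells with none in KO, and at 119 CPM and 0.789 CPM in WT. Ccnb1 was at 106 CPM and 2.39 CPM in KO, and at 98.4 CPM and 0.631 CPM in WT.

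Within cells with proliferation transcripts, Ccna2 (ratio 1.06, 0.939 to 1.19), Ccnb1 (1.07, 0.942 to 1.22), Ccne1 (1.16, 0.945 to 1.43), Ccne2 (1.20, 0.924 to 1.57), Cdkn1a (1.05, 0.969 to 1.15) and Cdkn2c (1.02, 0.832 to 1.24) had intervals that spanned 1. Ccnd1 was at 140 CPM in KO and 75.1 CPM in WT there (1.87, 1.64 to 2.14), and Cdkn1b at 61.2 CPM in KO and 88.1 CPM in WT (0.695, 0.595 to 0.811). Ccnd3 spanned 1 as well (1.07, 0.973 to 1.18), and Ccnd2 had 16 KO and 3 WT UMIs there (5.23, 1.5 to 28.0).

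In cells with none of the proliferation transcripts, Ccnd1 was at 185 CPM in KO and 67.0 CPM in WT (2.76, 2.44 to 3.13). Cdkn1a was at 514 CPM in KO and 258 CPM in WT (1.99, 1.86 to 2.13). Cdkn2c was at 15.5 CPM in KO and 33.1 CPM in WT (0.469, 0.340 to 0.639), and Ccne1 at 23.6 CPM in KO and 14.4 CPM in WT (1.65, 1.20 to 2.25). In KO cells both Ccnd1 and Cdkn1a were lower with proliferation transcripts than without them, at 0.758 (0.678 to 0.848) and 0.472 (0.438 to 0.509) times the level without. In WT cells Ccnd1 was 1.12 times (0.969 to 1.30) and Cdkn1a 0.892 times (0.825 to 0.965) the level without. The named states took different shares of the lineage in the 2 libraries, and their part in these ratios was not tested. The split also took in the 55 KO and 7 WT unnamed cells that phagocyte genes led. Their median depths were 6537 UMIs in KO and 21828 UMIs in WT, and their part was not tested either.

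**Figure D3:**
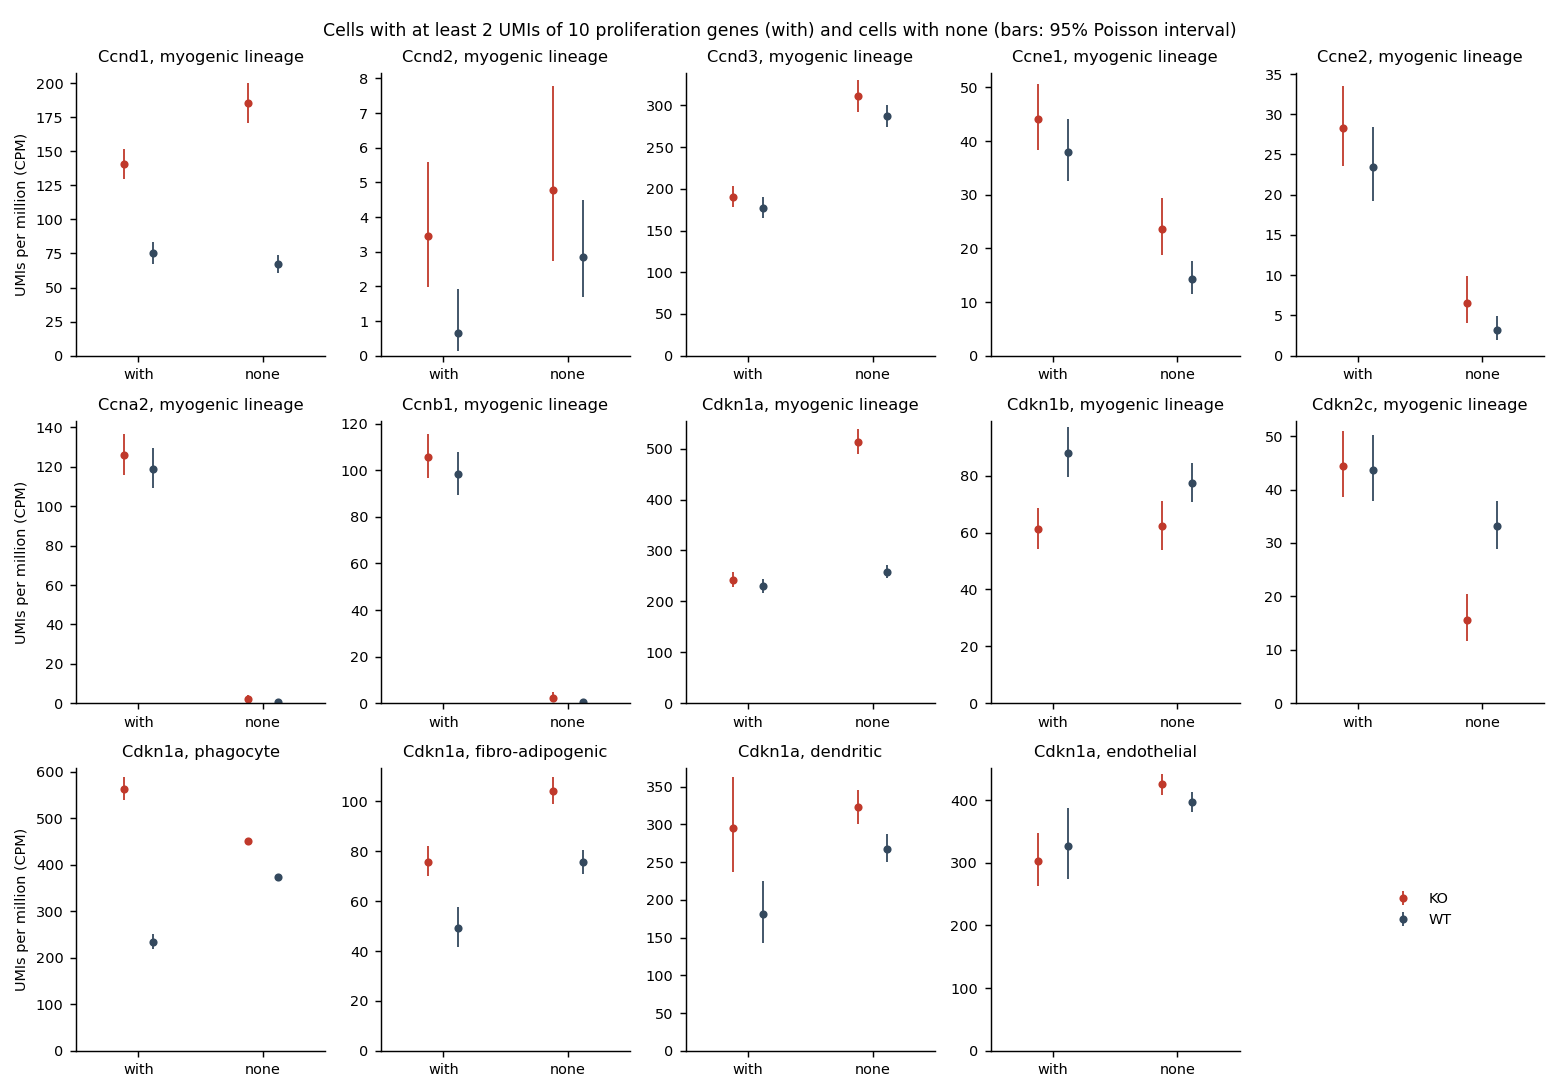
CPM (vertical axis, linear from 0) in cells with at least 2 UMIs of 10 proliferation genes (left in each panel) and with none (right), KO in red left of WT in dark blue, for the 10 genes in the myogenic lineage and for Cdkn1a in 4 other classes, with 95% Poisson intervals as bars. Ccna2 stands at 126 CPM in KO and 119 CPM in WT in the first set and near 0 in the second, and Cdkn1a in phagocytes with proliferation transcripts at 563 CPM in KO and 234 CPM in WT.

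The place of each cyclin in the cycle was read from cells with more S phase or more G2 and M phase transcripts, lists of 27 and 30 genes that hold none of the 10. In the lineage 98 KO and 90 WT cells leaned to S phase and 160 KO and 168 WT cells to G2 and M. The E cyclins were higher in S-leaning cells, Ccne2 4-fold in KO (2.91 to 5.54) and 2.24-fold in WT (1.58 to 3.18), and Ccne1 1.81-fold in KO (1.42 to 2.31) and 1.61-fold in WT (1.21 to 2.14). Ccna2 was lower in them, at 0.322 times the G2 and M level in KO (0.253 to 0.406) and 0.148 times in WT (0.101 to 0.210). Ccnb1 was lower still, at 0.120 times in KO (0.0796 to 0.175) and 0.0464 times in WT (0.0211 to 0.0889). That order, from Ccne2 through Ccne1 and Ccna2 to Ccnb1, was also the order of these ratios in fibro-adipogenic cells and, but for Ccna2 and Ccnb1 in WT, in phagocytes, where as in fibro-adipogenic cells the intervals of Ccne1 and Ccne2 overlapped. Endothelial cells (120 KO and 82 WT leaning to S phase) broke the order in WT, where Ccne2 was at 0.170 times the G2 and M level (0.0179 to 0.824) from 2 and 9 UMIs, below Ccne1 at 0.384 times from 1 and 2 UMIs. The 82 WT cells held 0 Ccna2 and 0 Ccnb1 UMIs, and only 39 KO and 33 WT endothelial cells passed the proliferation gate.

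Ccnd1 did not lean one way in every class. Its S phase to G2 and M ratio was 1.71-fold in KO (1.51 to 1.95) and 1.13-fold in WT (0.914 to 1.4) in the lineage, and 2.39-fold in KO (2.05 to 2.79) and 4.77-fold in WT (3.95 to 5.79) in phagocytes, and likewise above 1 in fibro-adipogenic cells at 1.37-fold in KO and 2.11-fold in WT. In endothelial cells, a class high in Ccnd1, it was at 0.652 times in KO (0.558 to 0.762) and 0.910 times in WT (0.746 to 1.11). Cdkn2c was lower in S-leaning cells in all 4 classes, at 0.663 times in KO and 0.688 times in WT in the lineage, 0.279 times in KO and 0.313 times in WT in phagocytes, 0.301 times in KO and 0.208 times in WT in fibro-adipogenic cells, and 0.203 times in KO and 0.180 times in WT in endothelial cells. Cdkn1a in phagocytes had opposite directions, 0.836 times in KO (0.781 to 0.894) and 1.65 times in WT (1.52 to 1.80). Of phagocytes, 227 KO and 207 WT cells leaned to S phase and 259 KO and 266 WT cells to G2 and M, while 230 KO and 219 WT cells passed the proliferation gate. The part of cells that were not dividing in the phagocyte and endothelial ratios was not tested.

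**Figure D4:**
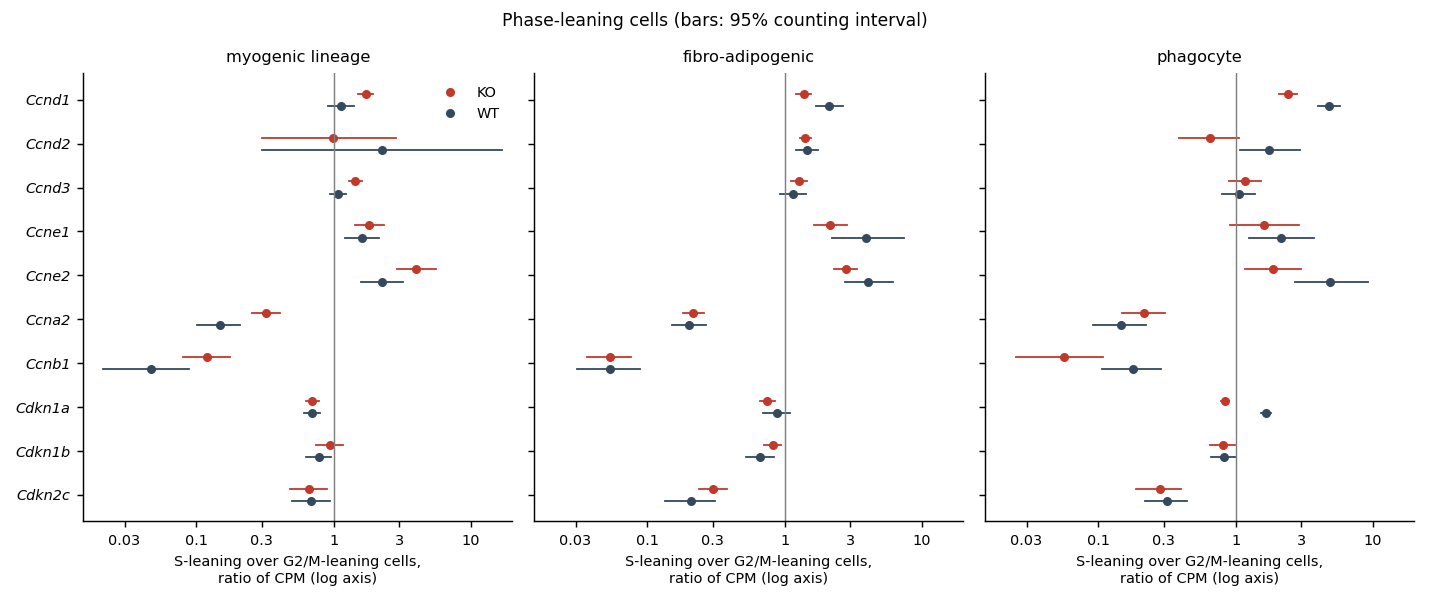
Ratio of CPM in S-leaning over G2 and M-leaning cells (horizontal log axis) for each gene in 3 cell classes, KO in red above WT in dark blue, with 95% counting intervals as bars. The E cyclins lie right of 1 and Ccna2, Ccnb1 and Cdkn2c left of it in the 3 classes drawn, which leave out endothelial cells, and for Cdkn1a in phagocytes KO (0.836) and WT (1.65) stand on opposite sides.

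Outside the lineage a wide difference in an inhibitor was that of Cdkn1a in phagocytes with proliferation transcripts. In the 230 KO and 219 WT phagocytes with proliferation transcripts it had 2005 KO and 781 WT UMIs, or 563 CPM in KO and 234 CPM in WT (ratio 2.40, 2.21 to 2.61), whereas in the 2951 KO and 2860 WT phagocytes with none it was at 450 CPM in KO and 374 CPM in WT (1.20, 1.17 to 1.23). A UMI of it was found in 197 of the 230 KO and 157 of the 219 WT cells, and the richest cell held 68 UMIs in KO and 80 UMIs in WT. In the cluster of cycling phagocytes, 76 KO and 94 WT cells that Birc5 and Mki67 were among the genes to lead, it was at 468 CPM in KO and 183 CPM in WT (2.55, 2.23 to 2.92). The cyclins of the same gated cells had intervals that spanned 1, such as Ccna2 at 68.3 CPM in KO and 72.6 CPM in WT and Ccnb1 at 54.8 CPM in KO and 48.9 CPM in WT, except Ccnd1 (1.20, 1.02 to 1.42).

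Over all phagocytes no gene of the 10 passed 1.5-fold, where 7.83% of genes tested were that much higher and 5.07% that much lower in KO. Cdkn1a was at 473 CPM in KO and 364 CPM in WT (1.30, 1.27 to 1.32), and by cluster its ratio lay between 1.04 and 2.55. The clusters held different shares of the 2 libraries, as in a cluster led by Slfn1 and Ifit2 with 336 KO and 706 WT cells.

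Fibro-adipogenic cells, the mesenchymal progenitors of muscle, had 5 of the 10 genes at least 1.5-fold higher in KO and none that much lower, where 10.5% of genes were that much higher and 10% lower. With no doublets removed the count was 3, with no share over all genes at that setting beside it. Ccne2 was at 24.5 CPM in KO and 11.5 CPM in WT (2.13, 1.82 to 2.50), Ccna2 at 36.5 CPM in KO and 18.7 CPM in WT (1.95, 1.72 to 2.22) and Ccnb1 at 26.0 CPM in KO and 16.6 CPM in WT (1.57, 1.37 to 1.80). Cells with proliferation transcripts were 31.9% of KO (28.9 to 35.0) and 12.9% of WT fibro-adipogenic cells (10.6 to 15.4). Within them Ccna2 was at 103 CPM in KO and 98.6 CPM in WT (1.05, 0.920 to 1.20), Ccnb1 at 75.2 CPM in KO and 89.2 CPM in WT (0.842, 0.731 to 0.972), and Ccne2 at 50.1 CPM in KO and 44.5 CPM in WT (1.13, 0.930 to 1.37). As in the lineage, the ratios of these 3 cyclins were nearer to 1 within proliferating cells than over the class.

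Ccnd2 in fibro-adipogenic cells was at 148 CPM in KO and 97.1 CPM in WT (1.52, 1.44 to 1.61), a ratio that was 1.33 at a minimum of 2000 UMIs. It was higher in KO both in cells with proliferation transcripts, at 121 CPM in KO and 83.6 CPM in WT (1.45, 1.27 to 1.67), and in cells with none, at 162 CPM in KO and 96.9 CPM in WT (1.68, 1.56 to 1.80). Cdkn1a was at 92.5 CPM in KO and 68.9 CPM in WT (1.34, 1.25 to 1.44). Ccnd3 and Cdkn1b had intervals spanning 1 in this class, at ratios of 1.05 and 0.971.

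Dendritic cells were the class with the most lower genes: Ccnd2, Ccna2 and Ccnb1 were past 1.5-fold lower and Ccne2 that much higher in KO, where 5.93% of genes were that much lower and 10.8% higher. Of the 10 genes 9 had the 20 UMIs to be counted, and the interval of Ccnb1 (0.227 to 1.28) spanned 1. Ccnd2 was at 67.0 CPM in KO and 118 CPM in WT (0.566, 0.479 to 0.668), and at 67.3 CPM in KO and 111 CPM in WT in cells with no proliferation transcripts (0.606, 0.501 to 0.732). Ccna2 was at 5.80 CPM in KO from 7 cells with a UMI and 11.8 CPM in WT from 14 cells. The Ccna2 levels rest on 18 KO and 48 WT UMIs. Among genes with at least 100 UMIs 1 of the 10 passed.

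The smaller classes rest on few cells. In mural cells 3 genes were past 1.5-fold higher in KO, where 12.6% of genes were: Ccnb1 at 39.9 CPM in KO and 10.3 CPM in WT (3.86, 2.20 to 7.24), Ccna2 at 58.7 CPM in KO and 29.6 CPM in WT (1.99, 1.39 to 2.89) and Cdkn2c at 48.8 CPM in KO and 26.1 CPM in WT (1.87, 1.27 to 2.80). Those Ccnb1 UMIs came from 16 KO and 3 WT cells, and the ratio was 1.72 with no doublets removed and 1.90 at a minimum of 10000 UMIs. The Ccna2 ratio in mural cells was 3.02 at a minimum of 2000 UMIs. None was that much lower, where 9.04% of genes were. In tenocytes 3 were higher and none lower, where 18.2% and 6.35% of genes were, and Ccna2 had 22 UMIs in 8 KO cells and 0 in 84 WT cells, at least 4.34-fold higher against a floor of 3 UMIs in the WT class. At a minimum of 2000 UMIs 6 genes passed in tenocytes, with no share over all genes at that setting beside them. Endothelial cells had 2 genes higher, Ccna2 (1.62) and Ccnb1 (1.87), and none lower, where 8.56% and 3.95% of genes were, and none passed with no doublets removed and 1 among genes with at least 100 UMIs. Lymphocytes had 2 higher and 2 lower, where 21% and 10.4% of genes were, with Cdkn1a at 182 CPM in KO and 85.1 CPM in WT (2.14, 1.57 to 2.94). Ccna2 was at 64.1 CPM in KO and 108 CPM in WT (0.592, 0.394 to 0.875). These were 56 KO and 50 WT cells, with median depths of 8596 UMIs in KO and 13853 UMIs in WT. The Cdkn1a ratio was 1.18 at a minimum of 2000 UMIs and 1.37 with cycle genes kept for clustering. The part of that depth in the lymphocyte ratios was not tested. Over all cells of the 2 libraries only Ccne2 passed, at 11 CPM in KO and 5.85 CPM in WT (1.88, 1.69 to 2.09), where 7.43% of genes were that much higher and 7.34% lower.

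**Figure D5:**
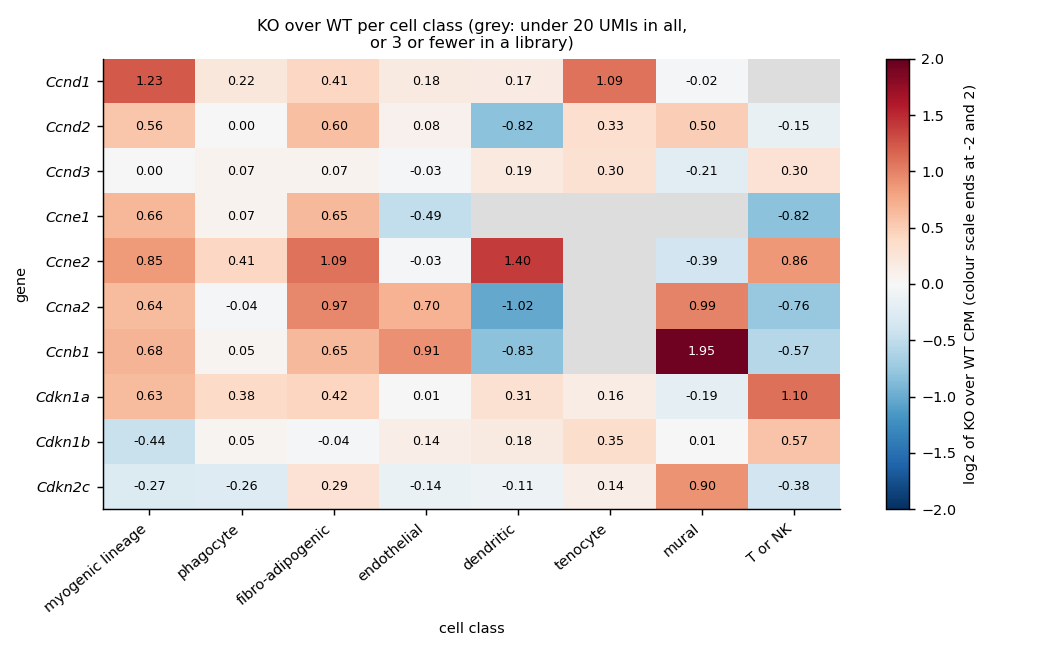
Log2 of KO over WT CPM for each gene (rows) in 8 cell classes (columns), red where KO is higher and blue where WT is higher, grey where the gene had under 20 UMIs in all or 3 or fewer in a library. Ccna2 is red in the lineage, fibro-adipogenic, endothelial and mural columns and blue in dendritic cells and lymphocytes, and Ccnd3 is pale in every column.

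The rest of the cell-cycle machinery was counted over the lineage from lists of related genes. Of all genes tested there 54.8% were higher in KO, 45.2% lower, 13% at least 1.5-fold higher and 11.4% that much lower. Of 27 S phase genes all 27 were higher in KO and 18 passed 1.5-fold, with a median log2 ratio of 0.58, and of 30 G2 and M phase genes 29 were higher and 11 passed. Mcm2, part of the replicative helicase, was at 23.1 CPM in KO and 10.3 CPM in WT (2.24, 1.80 to 2.79), and Top2a at 294 CPM in KO and 158 CPM in WT (1.86, 1.76 to 1.97). Of 18 regulators of CDK activity 16 were higher and 9 passed, among them the mitotic kinase gene Plk1 at 38.3 CPM in KO and 20.9 CPM in WT. Of 18 genes of the RB and E2F family 14 were higher and 7 passed, led by Mybl2 at 9.97 CPM in KO and 3.94 CPM in WT. Within cycling cells 26 of the 30 G2 and M phase genes were lower in KO, with a median of -0.26, while 21 of the 27 S phase genes were higher, with a median of 0.14, beside 49.0% of all genes lower and 51.0% higher in those cells and a median of 0.01. These 2 lists were not left out of the clustering, and the 10 gate genes of the G2 and M list also served to name the cycling state. The counts were thus taken within a state named in part from the same genes, and are given for the clustered state only.

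Of 17 CDK genes 12 were higher, where 54.8% of all genes were, and only Cdk1, the partner of cyclin B1, passed 1.5-fold, at 114 CPM in KO and 62.7 CPM in WT (1.82, 1.66 to 1.99). Of 14 other cyclins tested, 7 were higher and 7 lower. Ccnf was at 11 CPM in KO and 3.94 CPM in WT (2.80, 1.99 to 3.98), and the splicing-related cyclin gene Ccnl1 at 89.9 CPM in KO and 117 CPM in WT (0.771, 0.709 to 0.839). Ccnb2, the second B cyclin, was at 164 CPM in KO and 225 CPM in WT cycling cells (0.730, 0.657 to 0.810) and 69.7 CPM in KO and 29.1 CPM in WT stem cells (2.39, 1.97 to 2.90).

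Of the 5 other CDK inhibitors 4 were lower in KO and Cdkn1c, the third CIP/KIP gene and an imprinted one, passed 1.5-fold, at 956 CPM in KO and 1874 CPM in WT lineage cells (0.510, 0.498 to 0.523). In stem cells it was at 299 CPM in KO and 1802 CPM in WT (0.166, 0.154 to 0.178). Of 19 p53 target genes tested, a set to which Cdkn1a belongs but which was counted without it, 9 were higher and 10 lower, and 4 passed 1.5-fold lower and none higher, where 11.4% and 13% of all genes did.

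Over the 16 sums of 8 classes in 2 libraries, which share their 2 libraries, the genes most like Ccna2 by Pearson correlation of log2(CPM + 5) were Tpx2 (0.984), Pbk (0.982) and Cdk1 (0.980), and those most like Ccnb1 were Cdc20 (0.980), Cenpf (0.975) and Cdk1 (0.974). Ccne2 was most like Rpa2 (0.968), Clspn (0.966) and Mcm4 (0.952), genes of DNA replication. Ccne1 stood nearest to Psat1 (0.979), Ccnd3 to Eif3g (0.940), Cdkn2c to Ppp1r7 (0.934), Cdkn1b to Rad51d (0.930), Ccnd1 to Usp6nl (0.902), Cdkn1a to Rb1 (0.899) and Ccnd2 to Efr3a (0.872).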

How the data were processed

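Cells of 1 KO and 1 WT library were read from the deposited counts of unique molecular identifiers (UMIs) per gene and barcode, made by the authors. The build GRCm38 and the tools Seurat 4.0.1, STARsolo 2.7.9a and STAR 2.7.8a are listed, without roles, in the submitters' processing notes. No source used here names the annotation release. The libraries held 138667420 UMIs in KO and 121703522 UMIs in WT. Barcodes with at least 5000 UMIs, 300 genes and at most 10% mitochondrial UMIs were kept (6779 KO, 6705 WT). Scrublet's own threshold called 0 doublets, and instead the top-scoring barcodes, 0.8% for each 1000 in the library, were dropped (368 KO, 360 WT).

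Clusters (scanpy 1.11.5, leidenalg 0.10.2, scikit-learn 1.9.0, python 3.11.15; 2000 variable genes, 30 components, resolution 1) were made without the 10 genes and the related cyclin, CDK, inhibitor and RB/E2F lists, and named from marker lists. The myogenic lineage joins 2 myogenic clusters and 1 muscle fibre cluster, and its states were clustered at resolution 0.2, without genes at least 2-fold apart between libraries. That join, that resolution and the omission of haemoglobin genes from leading genes were chosen after seeing the data. The members, lists and tests were chosen with earlier results of these data known. Rebuilt class names may differ from the study's. Schwann-like cells (31 KO, 32 WT) were too few to compare.

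UMIs were summed per class and library, with exact Poisson intervals for CPM, conditional binomial intervals for ratios and Clopper-Pearson intervals for shares (numpy 2.4.6, scipy 1.17.1). On simulated Poisson counts of 13717 lineage genes, 200 of them changed, the 95% ratio intervals covered the true value for 95.7% of genes. The intervals assume such counts, so this checks their calculation only and not the spread between cells or animals. Named list genes are the up to 4 per list whose ratio interval lay furthest from 1 in the lineage, and 3 genes per member were named by likeness. Promoters came from RefSeq, where 6 of the 10 genes had a window.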

Additional observations from a re-analysis of the deposited data

Results flagged for a closer look

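Directions that differed between cell classes were marked for 2 of the 10 genes, with every marked ratio past 1.5-fold, and these differences between classes were not tested. Ccnd2 had a KO over WT ratio of 1.52 in fibro-adipogenic cells and 0.566 in dendritic cells. Ccna2 had ratios of 1.56 in the myogenic lineage, 1.95 in fibro-adipogenic cells, 1.62 in endothelial cells, 1.99 in mural cells and at least 4.34 in tenocytes, where no WT cell held a UMI, but 0.493 in dendritic cells and 0.592 in T or NK lymphocytes. Genes without a mark did not all keep the same direction. Cdkn2c, for example, was at 11.2 CPM in KO and 13.4 CPM in WT phagocytes, but at 48.8 CPM in KO and 26.1 CPM in WT mural cells.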

How the results depend on the processing

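No paired analysis was possible because each genotype had 1 library, so leaving out a replicate could not be run either. Values here are log2 ratios of KO over WT in the myogenic lineage. Over 12 settings Ccnd1 lay between 1.12 and 1.33, Ccnd3 between -0.08 and 0.04, Cdkn1b between -0.52 and -0.28 and Cdkn2c between -0.43 and -0.22. With the mean over cells of each cell's CPM, Ccnd2 was at 1.43, Ccne1 at 0.95, Ccne2 at 1.29, Ccna2 at 0.87, Ccnb1 at 0.90 and Cdkn1a at 0.85. At a minimum of 10000 UMIs Ccnd2 was at -0.25. With mitochondrial, ribosomal protein and haemoglobin genes left out of the totals, which moved every lineage ratio by -0.08, Cdkn1a was at 0.55 and 3 genes passed 1.5-fold. With the 3 named states weighted as in WT, an alternative chosen after seeing the data, Ccna2 was at -0.093, Ccnb1 at -0.020, Ccne1 at 0.37, Ccne2 at 0.13, Cdkn1a at 0.37 and Cdkn1b at -0.28, and 2 genes passed, Ccnd1 and Ccnd2. At a fold of 2, without these weights, only 1 passed. The direction of Ccnd2 in stem cells turned with cycle genes kept for clustering (-0.64), at a state resolution of 0.3 (-0.077) and with genes that differ between libraries kept (-0.73), the last pair also chosen after seeing the data. The cause of these changes was not tested, beyond what each setting itself alters. Counting error limits genes under 20 UMIs in a library. Ccna2 in tenocytes has no log2 ratio to compare, since WT had 0 UMIs.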

Other observations

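Among p53 target genes, the 4 furthest from 1 in the lineage were lower in KO, unlike Cdkn1a. Btg2, an antiproliferative gene, was at 253 CPM in KO and 418 CPM in WT (ratio 0.605, 0.577 to 0.635), Gadd45a at 65.5 CPM in KO and 106 CPM in WT (0.618, 0.561 to 0.680), Plk2 at 86.4 CPM in KO and 133 CPM in WT (0.652, 0.599 to 0.708) and Fas at 12.1 CPM in KO and 22.5 CPM in WT (0.537, 0.429 to 0.668). In stem cells Btg2 was at 527 CPM in KO and 551 CPM in WT (0.956, 0.901 to 1.01), while Plk2 was at 105 CPM in KO and 148 CPM in WT (0.712, 0.624 to 0.810). Of the 18 p53 targets tested in cycling cells 14 were lower in KO, where 49.0% of all genes were, with a median log2 ratio of -0.29, beside 0.01 over all genes tested there. In stem cells 12 of 19 were higher in KO and 7 lower, with a median of 0.13 beside 0.06 over all genes, and 2 passed 1.5-fold higher and 1 lower. Of all genes tested there 58.1% were higher and 41.9% lower, 12% at least 1.5-fold higher and 9.61% that much lower. The stem cell counts of p53 targets lie near those shares.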
